A study of Mus musculus with 11 samples.

Results

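The 88 RNAs described here are the small nuclear, nucleolar and structural RNAs that were measurable in mouse peritoneal macrophages given a microRNA-150 (miR-150) mimic or a negative control. They comprise every gene that the deposited table classes as snoRNA, scaRNA, snRNA, misc_RNA or ribozyme and that reached a log2 CPM of -1 in 5 or more libraries. CPM is the number of reads in a library scaled to a common total of reads assigned to genes. Of 1562 genes in these 5 classes, 88 passed, against 12969 of 31936 genes in the whole table: 33 of 310 misc_RNA, 2 of 13 ribozyme, 8 of 26 scaRNA, 7 of 628 snRNA and 38 of 585 snoRNA genes. The members were thus chosen by their measured level, pooled over both groups. Of the 88, 50 reached that level in all 11 libraries. Another 3 reached it in every control and at most 1 mimic library, and 1 in at least 5 mimic libraries and at most 1 control. The libraries of 1 group were enough for these 4 to be included, so their differences are descriptions. Gm26315, Rn7s2 and Snord49a reached it in 4 controls and 1 mimic library, and Gm23833 in 4 mimic libraries and 1 control. These passed mainly through 1 group, so their differences are descriptions too. The last members inside the limit were the snoRNA genes Gm22270, Gm24455 and Gm25117, where the lowest of the 5 highest log2 CPM values was -0.997, -0.98 and -0.96. Those just outside it were Snora62, Gm26202 and Snord19, at -1.05, -1.08 and -1.08.

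The cells were macrophages that entered the peritoneal cavity of female mice after thioglycollate, an irritant that draws inflammatory cells there. The 6 mimic libraries came from cells given the miR-150 mimic, a synthetic RNA that acts as this microRNA, and the 5 control libraries from cells given a negative control. A sixth control was left out by the submitters because its fragmentation was improper, and it was not analysed here. Total RNA was isolated with TRIzol and a silica column, and the way libraries were made from it is not given beyond standard methods. Whether replicates came from separate mice or cultures is not given either, so p-values measure the spread between these libraries, which may be technical. The mimic libraries held 20313901 to 25473814 assigned reads and the controls 18538509 to 22668862. Summed over 8 macrophage markers, among them Adgre1, Cd68 and Csf1r, levels were 15933 to 20299 CPM in mimic libraries and 17777 to 20592 CPM in controls.

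These RNAs work without being translated. Small nuclear RNAs form the spliceosome with proteins; box C/D small nucleolar RNAs guide methylation, and box H/ACA RNAs guide pseudouridylation, of ribosomal RNA, while small Cajal body RNAs (scaRNAs) guide the same reactions on small nuclear RNAs. The 7SK RNA holds the elongation kinase P-TEFb inactive together with the HEXIM proteins, and the 7SL RNA is the scaffold of the signal recognition particle, which brings ribosomes to the endoplasmic reticulum. Rpph1 and Rmrp are the RNA subunits of RNase P, which trims the 5′ ends of transfer RNA precursors, and of RNase MRP, which cuts ribosomal RNA precursors. RNA polymerase III makes 7SK, 7SL, Rpph1 and Rmrp, whereas most mammalian snoRNAs and many scaRNAs are cut out of the introns of other genes. These RNAs lack the long poly(A) tails of messenger RNA, and they act in particles with proteins.

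Rn7sk, Rpph1 and Rmrp supplied most of the reads of the 88 RNAs. All 88 took 1.12% of assigned reads in mimic replicate 1 and 0.323% to 0.525% in the other 5 mimic libraries, against 0.807% to 1.34% in controls. Rn7sk alone took 0.483% in mimic replicate 1 and 0.111% to 0.192% in the other mimic libraries, against 0.347% to 0.661% in controls. For Rpph1 the shares were 0.491% in mimic replicate 1 and 0.147% to 0.257% in the other mimic libraries, against 0.340% to 0.498% in controls. Thus 5 of the 6 mimic libraries lay below every control in each of these sums, and mimic replicate 1 lay inside the range of the controls. These shares are of the reads as assigned, whereas log2 CPM uses the library totals as the authors scaled them, on which mimic replicate 1 lies above every control for Rpph1 (12.31 against at most 12.26). The 1474 genes of the same classes that did not pass the level filter added little, since all 1562 together took 0.330% to 1.12% in mimic libraries and 0.813% to 1.35% in controls. Per kilobase of transcript, Rpph1 averaged 7622 CPM in mimic libraries and 12735 CPM in controls, Rn7sk 6024 CPM in mimic libraries and 14122 CPM in controls, and Rmrp 1116 CPM in mimic libraries and 3010 CPM in controls. Next in that order came Scarna2, with 426 CPM per kilobase in mimic libraries and 607 in controls. In bulk RNA, fewer cells of a type and less RNA per cell cannot be told apart.

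**Figure D1:**
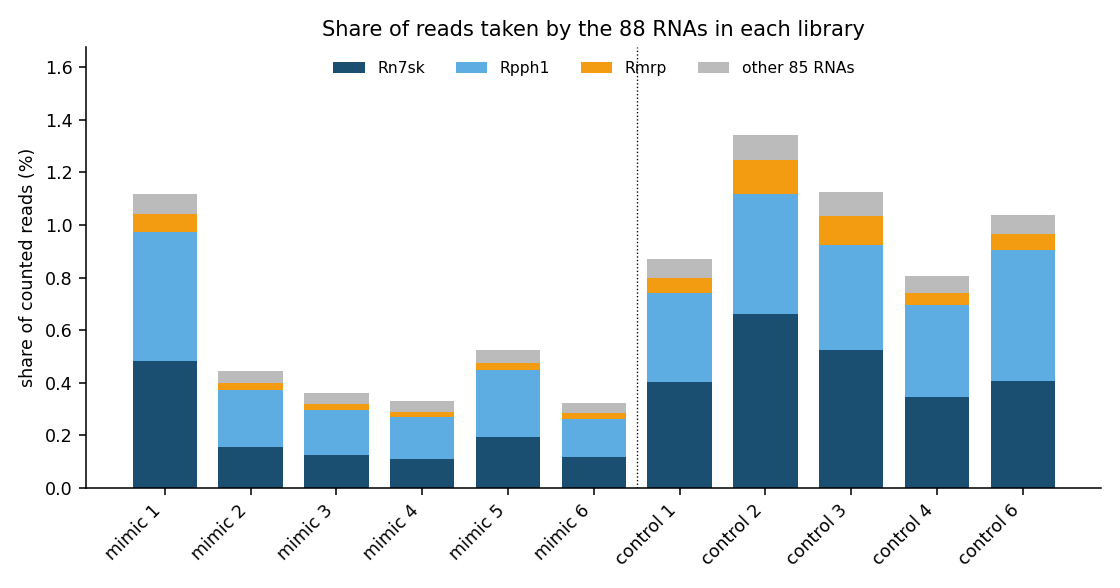
Share of assigned reads (%, vertical axis) taken by Rn7sk, Rpph1, Rmrp and the other 85 RNAs, stacked for each of the 6 mimic and 5 control libraries. Mimic replicate 1 reaches 1.12%, the other mimic libraries 0.323% to 0.525%, and the controls 0.807% to 1.34%.

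The libraries did not form 2 uniform groups for these RNAs. Among the 37 RNAs found lower in the next paragraph, mimic replicate 1 had the highest mimic value for 32 and lay within the control range for 30, above every control for 1 and below every control for 6. Ifit3, an interferon-induced gene and the only one looked at for this library, had a log2 CPM of 7.79 in mimic replicate 1. Its values were 7.84 to 7.98 in the other mimic libraries and 3.94 to 4.75 in controls. Controls were uneven too, since replicates 2 and 3 lay above the other 3 controls for 28 of the 37, by the most for Rmrp (0.90 log2 units), Gm24265 (0.88) and Snord17 (0.81), and control replicate 4 was the lowest control for 22. Results are therefore given with and without mimic replicate 1 where it matters, and the part of these libraries in the differences was not tested.

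With the mimic, 37 of the 88 RNAs fell, 2 rose and 49 did not pass the test, with a call at a limma adjusted p (Benjamini-Hochberg, over all 12969 genes tested) below 0.05. Over all genes tested, 14.6% were lower and 15.4% higher, so the 42.05% of these RNAs that fell is a larger share than that of genes at large. This excess was not seen without mimic replicates 3, 4 and 6, or without control replicates 2 and 3, as given further below. Their median log2 fold change was -0.47, against 0.000713 for all genes tested. At least 5 mimic libraries lay below every control for 40 of the 88, where 15.1% of all genes did so. All 6 mimic libraries lay below every control for only 3, the snRNA gene Gm24265 and the snoRNA genes Snora78 and Gm25835 (6.04% of all genes), and all 6 lay above every control for 1, Snora31 (8.89%). Without mimic replicate 1, 46 fell and 3 rose, against 19.3% lower and 20.8% higher among all genes. With another library left out, 28 fell without mimic replicate 2 (14.4% of all genes lower), 22 without replicate 3 (11.2%), 22 without replicate 4 (11.3%), 34 without replicate 5 (14.9%) and 25 without replicate 6 (10.8%). Among controls, 31 fell without replicate 1 (11.3%), 21 without replicate 2 (11.1%), 21 without replicate 3 (11.3%), 38 without replicate 4 (11.7%) and 32 without replicate 6 (11.0%). All 37 were among the 46 of the fit without mimic replicate 1, and the median log2 fold change of the 37 was -1.31 without that library and -1.10 with it.

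**Figure D2:**
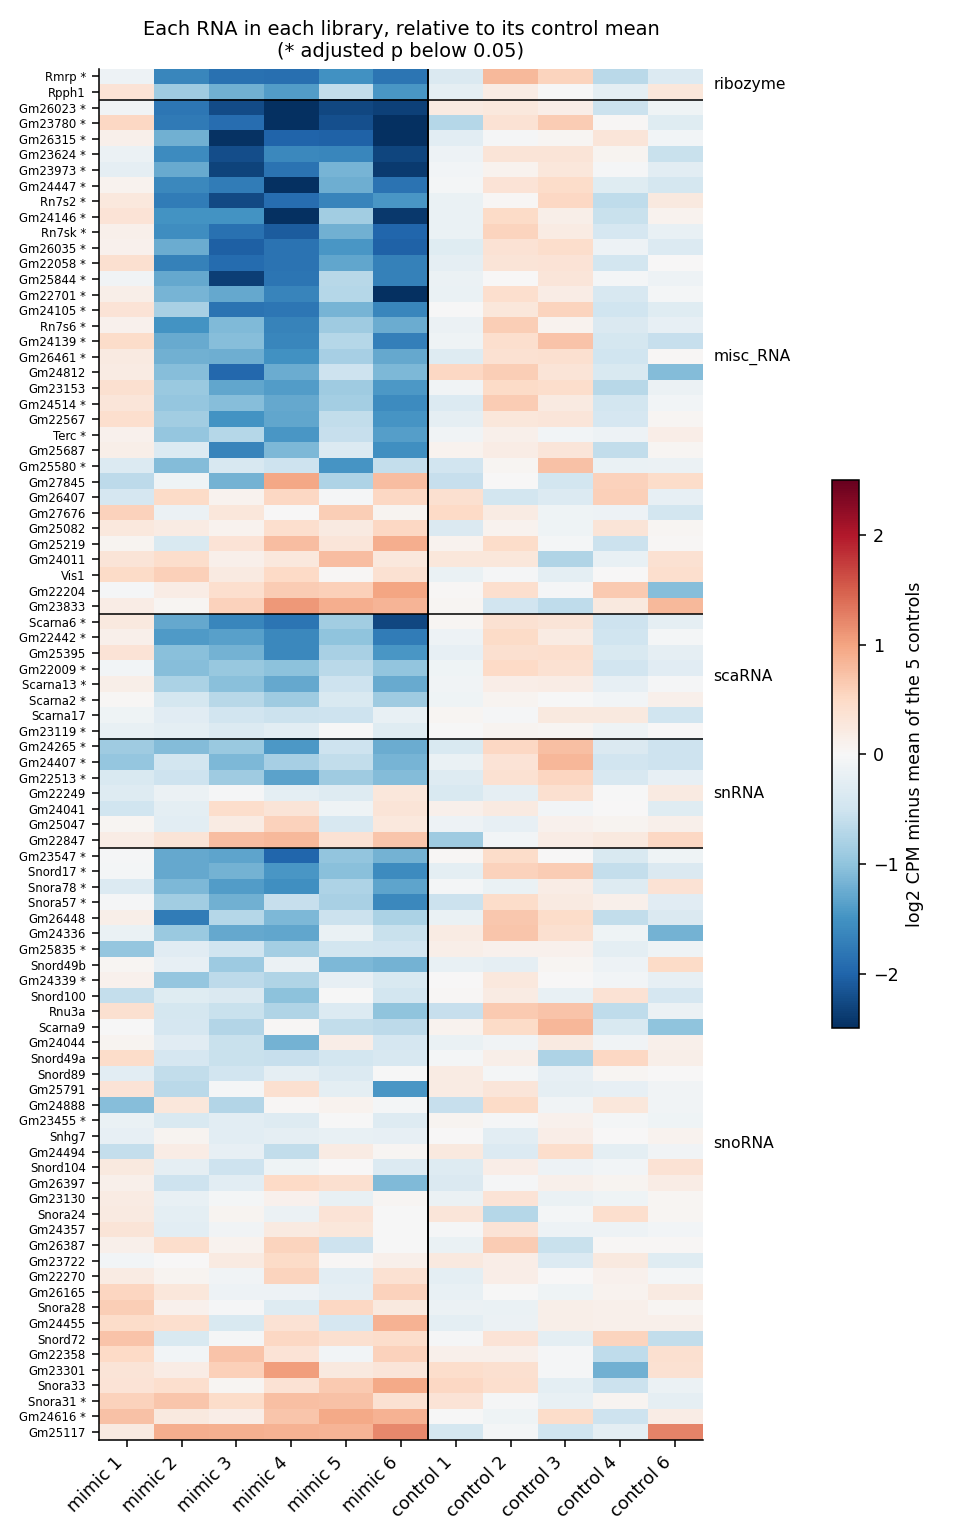
Log2 CPM of each of the 88 RNAs (rows, by class and then by fold change) in each library (columns), minus the mean of the 5 controls; blue is below and red above that mean, and an asterisk marks an adjusted p below 0.05. The blue block covers mimic replicates 2 to 6 for most misc_RNA, ribozyme and scaRNA genes, while mimic replicate 1 is close to the controls there.

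The classes did not move alike. Of the misc_RNA genes 20 of 33 fell (median log2 fold change -0.97), of the scaRNAs 6 of 8 (median -0.79), and of the 2 ribozyme RNAs 1 fell, the pair having values of -1.47 and -0.87. Of the snRNA genes 3 of 7 fell (median -0.13). The snoRNAs, the largest class, had 7 lower, 2 higher and 29 not called of 38 (median -0.16). Every scaRNA had a negative fold change, against 23 of 38 snoRNAs, and differences between classes were not tested. Without mimic replicate 3 or 4, or control replicate 2 or 3, 12 misc_RNA genes and 2 scaRNAs fell; without mimic replicate 6 it was 13 and 2. Lower snoRNAs numbered 4 without mimic replicate 2, 3 or 4 and 3 without control replicate 2 or 3, and lower snRNAs 3 whichever single library was left out. In omissions chosen after the data were seen, 1 snRNA fell without control replicates 2 and 3, and 0 without mimic replicates 3, 4 and 6. The median level also differed between classes, from a mean log2 CPM of -0.33 for snoRNAs to 4.51 for scaRNAs and 10.12 for the 2 ribozyme RNAs. Of the 31 RNAs with a mean log2 CPM of 1 or more, 19 fell and none rose, and of the 57 below that level 18 fell and 2 rose. Among all genes tested, 16.6% of those with a mean of 1 or more were lower, and 6.16% of those below it.

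7SK RNA and the copies most like it fell. Rn7sk (chr9:78175303-78175633, minus strand, GRCm38, outside other genes) had a lowest log2 CPM of 10.07, a median of 10.44 and a highest of 12.28 in mimic libraries, against 11.99, 12.70, 12.36, 11.73 and 11.97 in controls 1, 2, 3, 4 and 6. The highest mimic value is that of replicate 1, and the other 5 lay at or below 10.94, under every control. Rn7sk was 2.68-fold lower, with -1.42 ± 0.39 (SE) on the log2 scale (adjusted p by limma 0.0243; without mimic replicate 1, -1.74 and adjusted p = 0.000508). The call was lost without mimic replicate 3, 4 or 6 or control replicate 2 or 3, where the limma adjusted p was 0.0521 to 0.0561, and also without a filter on low values (0.0571) and with the replicate number as a block (0.0671). An exact two-sided permutation test over all ways to assign the 11 libraries gave p = 0.013 for Rn7sk. Its first 300 bases are printed because the other members of its family were defined by likeness to it; capitals mark GATC, a motif found 3 times in the first 100 bases, which include the hairpin that HEXIM proteins bind.

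Rn7sk: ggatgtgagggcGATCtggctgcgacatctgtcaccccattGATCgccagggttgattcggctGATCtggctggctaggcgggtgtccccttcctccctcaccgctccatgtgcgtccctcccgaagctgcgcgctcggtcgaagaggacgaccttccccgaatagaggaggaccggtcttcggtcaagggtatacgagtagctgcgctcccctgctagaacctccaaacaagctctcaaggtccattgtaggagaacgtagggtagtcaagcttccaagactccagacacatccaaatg

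Another 16 misc_RNA genes shared at least 70% of their bases with Rn7sk over 50 or more aligned bases, and they were split at 80% after their values were known. All 12 RNAs of 80% or more, Rn7sk included, fell (median log2 fold change -1.44, range -1.98 to -0.74), and 8 to 12 fell with 1 library left out. Gm23624 and Gm26023 reached the level filter in all 5 controls and 1 mimic library, and Gm26315 in 4 controls and 1 mimic library. Part of this count thus comes from copies that passed mainly through the controls, where they are higher, and nothing rests on it. Of the 5 below 80%, Gm23780, which also passed the filter through all 5 controls and 1 mimic library, measured -1.84. It is counted as a fall, but its value is a description. The others below 80% measured 0.29 to 0.47 without passing. The copies are rare: the 11 other than Rn7sk together had 119 to 416 reads in a mimic library and 313 to 562 in a control, against 26179 to 98092 Rn7sk reads in mimic libraries and 64294 to 135377 in controls. How reads that match several copies were assigned is not given in the sources used here, so a copy's reads may be Rn7sk's own. The 2 sequences below, from GENCODE M21, are an identical copy and one just under 80% identity. Gm24447 (chr15:93234363-93234700, plus strand) has the first 241 bases of Rn7sk without a difference. Gm25082 (chr11:51270435-51270689, plus strand, overlapping an exon of Clk4) is shown at its bases 12 to 171. Capitals mark the bases that differ from Rn7sk in a local alignment, 0 in Gm24447 and 32 in Gm25082, and bases missing from a copy are not shown.

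Gm24447: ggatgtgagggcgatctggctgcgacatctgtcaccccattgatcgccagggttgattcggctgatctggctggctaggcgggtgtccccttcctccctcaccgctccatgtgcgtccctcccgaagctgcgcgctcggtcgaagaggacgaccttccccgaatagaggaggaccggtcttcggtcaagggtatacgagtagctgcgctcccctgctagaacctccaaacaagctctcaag
Gm25082: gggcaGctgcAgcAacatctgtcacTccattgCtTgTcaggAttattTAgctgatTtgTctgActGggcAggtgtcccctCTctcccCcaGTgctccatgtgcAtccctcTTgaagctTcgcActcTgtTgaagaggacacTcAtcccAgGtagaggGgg

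Gm24447, identical to Rn7sk over that stretch, had log2 CPM values of -2.15 to 0.63 in mimic libraries (median -1.13) and of 0.49, 0.88, 1.01, 0.25 and 0.12 in controls. That is 5 to 30 reads per mimic library and 20 to 45 per control. Its log2 fold change was -1.50 (SE 0.37; limma adjusted p = 0.00773). Gm25082, the more diverged of the pair, had values of 1.20 to 1.63 in mimic libraries (median 1.36) and of 0.75, 1.19, 1.01, 1.44 and 1.17 in controls. Its log2 fold change was 0.29 ± 0.13 (adjusted p = 0.0947), and Clk4, the kinase gene it lies in, rose by 0.19 (adjusted p = 0.0211). Gm26023, a copy with 92.4% identity that lies opposite to Ncam2, measured -1.98 ± 0.41. It is one of the 3 RNAs that reached the filter level in every control and at most 1 mimic library, so its value is a description. It rests on few reads, 2 to 16 per mimic library and 11 to 22 per control.

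RNAs of the 7SL family, 10 genes with at least 70% identity to Rn7s2 or Rn7s6, all had negative fold changes, with a median of -0.96, and 6 of the 10 fell. Without mimic replicate 1 all 10 fell, and 9 without control replicate 4, but 3 without mimic replicate 6 or control replicate 6 and 2 without mimic replicate 3 or 4 or control replicate 2 or 3. Rn7s6 had log2 CPM values of 0.59 to 2.36 in mimic libraries (median 1.08) and of 2.11, 2.86, 2.34, 1.90 and 2.03 in controls. It was 2.06-fold lower (log2 fold change -1.05 ± 0.28, limma adjusted p = 0.0147). Rn7s2, 98.6% identical to Rn7s6 over their alignment, measured -1.46, on 3 to 16 reads per mimic library and 8 to 22 per control. It reached the filter level in 4 controls but 1 mimic library. Though Rn7s2 is among the 6 counted, its value is therefore a description. The family as a whole had 412 to 1172 reads in a mimic library and 645 to 1421 in a control. Terc, the template RNA of telomerase, fell as well. Its log2 CPM was 0.18 to 1.73 in mimic libraries (median 0.79) and 1.55, 1.75, 1.56, 1.50 and 1.79 in controls, a log2 fold change of -0.83 ± 0.22 (adjusted p = 0.0117). Only mimic replicate 1 reached the controls for Terc. The other 5 misc_RNA genes outside these families did not pass; Vis1 measured 0.37 (adjusted p = 0.0721). Y RNAs and vault RNAs were not among the tested RNAs under those names.

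**Figure D3:**
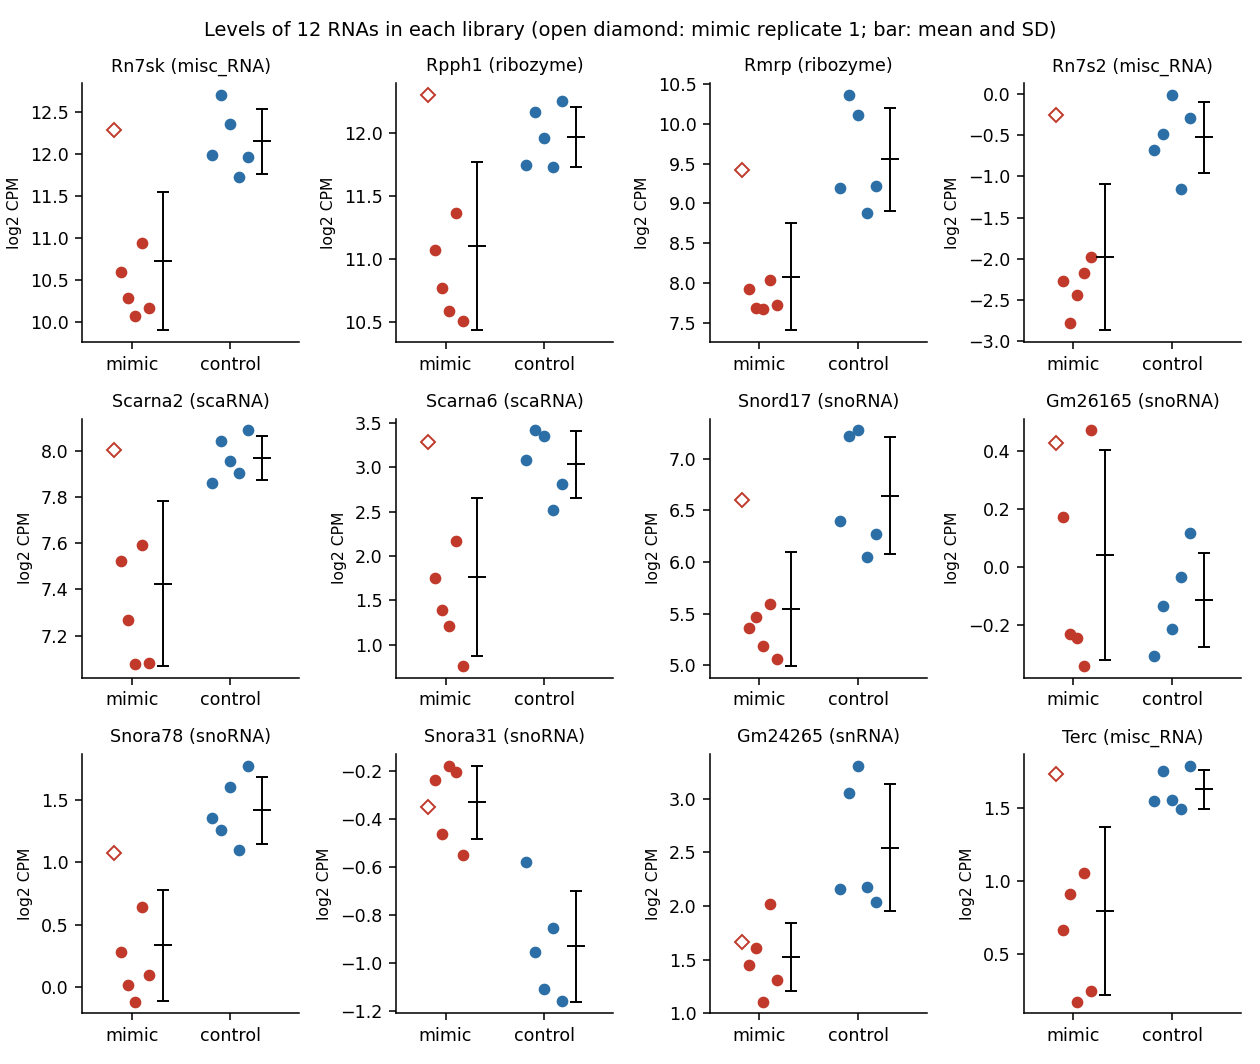
Log2 CPM (vertical axes) of 12 RNAs in each mimic (left, red) and control library (right, blue); the open diamond is mimic replicate 1, and bars are the mean and SD of 6 mimic and 5 control libraries. Mimic replicates 2 to 6 lie below every control for Rn7sk, Rpph1, Rmrp, Rn7s2, Scarna2, Scarna6, Snord17, Snora78, Gm24265 and Terc, all 6 lie above the controls for Snora31, and the groups overlap for Gm26165.

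The 2 ribozyme RNAs gave different calls. Rmrp (chr4:43492788-43493058, minus strand, GRCm38), printed below from GENCODE M21 as an abundant RNA with a large fall, had a lowest log2 CPM of 7.67, a median of 7.83 and a highest of 9.42 in mimic libraries. Controls 1, 2, 3, 4 and 6 had 9.20, 10.36, 10.12, 8.88 and 9.21. Rmrp was 2.78-fold lower (log2 fold change -1.47 ± 0.39, limma adjusted p = 0.0208), again with only mimic replicate 1 in the control range and with controls 2 and 3 above the rest. Rpph1 had values of 10.51 to 12.31 in mimic libraries (median 10.92) and of 11.74, 12.17, 11.96, 11.73 and 12.26 in controls. Mimic replicate 1 lay above every control for Rpph1 and the other 5 mimic libraries below every control. Its log2 fold change of -0.87 ± 0.31 missed the threshold (adjusted p = 0.0600), and without mimic replicate 1 it was -1.11 (adjusted p = 0.00162). With any other single library left out, only Rmrp of the 2 passed.

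Rmrp: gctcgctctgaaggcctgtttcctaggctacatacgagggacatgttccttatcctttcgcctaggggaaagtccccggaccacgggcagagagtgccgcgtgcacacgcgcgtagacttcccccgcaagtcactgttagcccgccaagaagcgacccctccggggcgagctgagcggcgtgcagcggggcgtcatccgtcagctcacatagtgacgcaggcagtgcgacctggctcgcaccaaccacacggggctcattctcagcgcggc

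Among the scaRNAs, Scarna2 was the most abundant. It had log2 CPM values of 7.08 to 8.00 in mimic libraries (median 7.40) and of 7.86, 8.04, 7.96, 7.90 and 8.09 in controls, or 3288 to 5056 reads per mimic library and 4532 to 5620 per control. It fell by 0.54 on the log2 scale (SE 0.15; limma adjusted p = 0.0174), with 5 of 6 mimic libraries below every control. Gm22009 fell by 0.79 (adjusted p = 0.0292), Scarna13 by 0.79 (0.0318), Gm22442 by 1.17 (0.0246) and Scarna6 by 1.27 (0.0369). Each of these 4 lost its call without mimic replicate 3, 4 or 6 or control replicate 2 or 3, at limma adjusted p values of 0.0508 to 0.0908, whereas Scarna2 kept its call with any single library left out. The smallest and at the same time best determined change was that of Gm23119, which had values of 4.29 to 4.62 in mimic libraries (median 4.38) and of 4.64, 4.70, 4.68, 4.53 and 4.64 in controls. It fell by 0.23 (SE 0.06; adjusted p = 0.00971), and mimic replicate 1 lay below every control there. Gm25395 (-0.96, adjusted p = 0.0566) and Scarna17 (-0.35, adjusted p = 0.0874) missed the threshold, and both passed without mimic replicate 1. With any other single library left out, at most 6 of the 8 scaRNAs fell.

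Most snoRNAs did not pass, among them short RNAs with guide boxes. Snord17 was the most abundant snoRNA, with log2 CPM values of 5.06 to 6.60 in mimic libraries (median 5.42) and of 6.40, 7.21, 7.27, 6.05 and 6.27 in controls. It was 2.14-fold lower (log2 fold change -1.10 ± 0.33, limma adjusted p = 0.0326). The call was lost without any one of mimic replicates 2 to 6 or control replicates 2 and 3 (adjusted p 0.0501 to 0.0713). The gene that houses it, Snx5, which encodes a sorting nexin, also houses the snoRNA gene Gm26165, whose values were -0.34 to 0.47 in mimic libraries (median -0.03) and -0.31, -0.13, -0.21, -0.04 and 0.12 in controls. The groups overlap for Gm26165, and its log2 fold change was 0.16 ± 0.19 (adjusted p = 0.549). Reads differ as well, at 855 to 1914 for Snord17 and 19 to 35 for Gm26165 per mimic library, against 1256 to 3498 for Snord17 and 17 to 20 for Gm26165 per control. Both lie on the minus strand of GRCm38, Snord17 at chr2:144265979-144266216 and Gm26165 at chr2:144261589-144261726. They are printed from GENCODE M21 with Snord104 (chr11:106500993-106501062, plus strand), a short RNA that did not pass (-0.16 ± 0.15, adjusted p = 0.450), and Snora78 (chr17:24719676-24719803, minus strand), the snoRNA with the smallest p. Capitals mark TGATGA (the core of box C) in the first 25 bases and CTGA (box D) in the last 25 for Snord17 and Snord104, and ACA in the last 8 bases, where box H/ACA RNAs have it, for the other 2.

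Snord17: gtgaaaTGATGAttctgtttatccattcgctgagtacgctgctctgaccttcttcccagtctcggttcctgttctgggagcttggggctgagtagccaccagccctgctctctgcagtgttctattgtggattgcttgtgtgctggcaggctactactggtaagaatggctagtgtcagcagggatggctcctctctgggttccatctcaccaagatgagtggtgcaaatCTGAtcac
Gm26165: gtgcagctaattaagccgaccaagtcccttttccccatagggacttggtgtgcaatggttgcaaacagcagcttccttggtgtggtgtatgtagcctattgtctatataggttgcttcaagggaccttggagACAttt
Snord104: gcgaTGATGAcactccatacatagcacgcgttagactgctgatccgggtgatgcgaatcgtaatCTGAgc
Snora78: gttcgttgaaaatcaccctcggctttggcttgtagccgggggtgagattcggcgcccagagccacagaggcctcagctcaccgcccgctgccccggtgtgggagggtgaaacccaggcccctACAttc

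The box letters were searched on the RNA strand only. Both TGATGA near the start and CTGA near the end occurred in 17 of the 87 members with a sequence (19.5%), all of them snoRNAs or scaRNAs, and 6 of these 17 fell. ACA in the last 8 bases occurred in 30 of the 87 (34.5%); 26 of them lacked the other pair, and 7 of those 26 fell. Snora78 had values of -0.11 to 1.07 in mimic libraries (median 0.19) and of 1.36, 1.26, 1.60, 1.10 and 1.77 in controls, so the groups did not overlap. It fell by 1.08 (SE 0.20; limma adjusted p = 0.000931). Also lower were Gm23547 (-1.13), Snora57 (-0.85), Gm25835 (-0.59), Gm24339 (-0.47) and Gm23455 (-0.24), with adjusted p between 0.00523 and 0.0344; Snora57 missed the threshold without control replicate 2 (0.0622) or 3 (0.0520), and Gm23455 in 7 of the 11 fits without 1 library (limma adjusted p 0.0510 to 0.0777). Rising were Snora31 and Gm24616. Snora31 had values of -0.55 to -0.18 in mimic libraries (median -0.29) and of -0.58, -0.95, -1.11, -0.85 and -1.16 in controls, without overlap, and rose by 0.60 (SE 0.18; adjusted p = 0.0217; 0.0509 without mimic replicate 4). It had 15 to 21 reads per mimic library and 8 to 14 per control. Gm24616 rose by 0.61 (adjusted p = 0.0368), with 4 of 6 mimic libraries above every control, and missed the threshold without mimic replicate 4, 5 or 6 or control replicate 1, 2 or 4 (0.0648 to 0.0988). Rnu3a, a copy of the U3 RNA needed to process ribosomal RNA precursors, measured -0.45 ± 0.30 (adjusted p = 0.278).

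Of the 7 snRNA genes, the 3 that fell were Gm24265 (-1.02 ± 0.24, limma adjusted p = 0.00700), Gm24407 (-0.86 ± 0.22, adjusted p = 0.0104) and Gm22513 (-0.85 ± 0.19, adjusted p = 0.00569). Gm24265 had log2 CPM values of 1.11 to 2.02 in mimic libraries (median 1.53) and of 2.15, 3.05, 3.30, 2.17 and 2.03 in controls, and Gm24407 of 0.05 to 0.75 in mimic libraries (median 0.31) and of 1.04, 1.55, 2.05, 0.73 and 0.69 in controls. Mimic replicate 1 was not set apart for these, at 1.66 and 0.25, while controls 2 and 3 were well above the other controls. The genes of the first 2 lie close together on the plus strand, Gm24265 at chr5:115489459-115489599 and Gm24407 at chr5:115490254-115490394 (GRCm38). Both are printed from GENCODE M21, with capitals at the only 2 bases in which they differ, because reads from one could be counted for the other. The remaining snRNA genes measured -0.13 to 0.53 and did not pass.

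Gm24265: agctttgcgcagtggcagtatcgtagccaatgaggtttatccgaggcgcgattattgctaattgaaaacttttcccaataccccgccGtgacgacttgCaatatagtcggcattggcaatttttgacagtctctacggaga
Gm24407: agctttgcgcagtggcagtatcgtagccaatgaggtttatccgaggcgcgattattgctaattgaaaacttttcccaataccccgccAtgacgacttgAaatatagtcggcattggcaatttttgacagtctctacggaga

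The RNAs that fell were mostly the longer ones. Of the 42 with an annotated length of 200 bases or more, 27 fell and none rose (median log2 fold change -0.97); 15 fell without mimic replicate 3 or 4 or control replicate 2 or 3, and 16 without mimic replicate 6. Of the 33 with at least 100 and under 200 bases, 9 fell and 2 rose (median -0.14), and of the 12 under 100 bases 1 fell, Gm24339 (median -0.24). All 22 RNAs of the 7SK (80% identity or more) and 7SL families are in the long class, and 18 of them fell. Of the other 20 RNAs of that length 9 fell. The 80% cut was made after the values were known. Gm23624, Gm26023, Gm26315 and Rn7s2 among the 18, and Gm23780 among the 9, passed the filter mainly through the controls. Nothing rests on this split. Within snoRNAs the counts were 2 of 4 lower at 200 bases or more, 4 of 23 from 100 to under 200 and 1 of 11 below 100. The RNAs of 200 bases or more with positive values were 7 misc_RNA genes, of which 6 lie within a gene or opposite to one. Outside these 88, the 21 tested genes whose longest transcript has under 200 bases had a median of -0.13, with 19.05% lower. The 135 of 200 to under 500 bases also had a median of -0.13, with 22.2% lower. Those of 500 to under 1000 bases had a median of -0.17, with 30.8% lower. For genes of 4000 bases or more the median was 0.06, with 8.80% lower. Whether the difference of these RNAs goes with length was not tested.

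**Figure D4:**
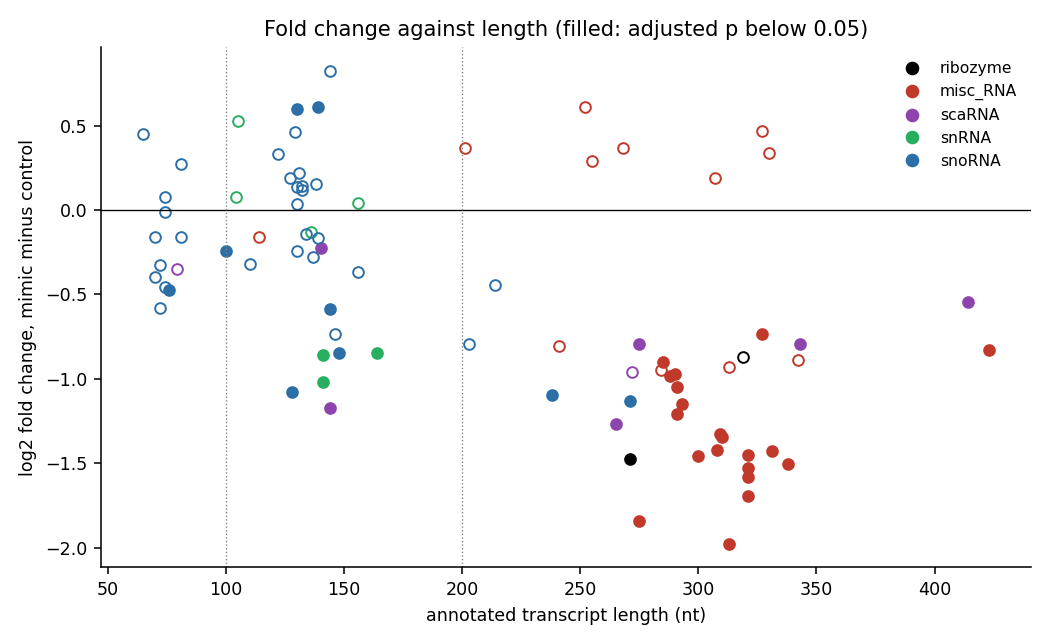
Log2 fold change, mimic minus control (vertical axis), against annotated length in bases (horizontal axis) for the 87 RNAs with a length, coloured by class; filled points passed the test, and dotted lines stand at 100 and 200 bases. Of the 42 RNAs of 200 bases or more 27 are filled and below 0, and of the 12 under 100 bases 1 is.

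The RNAs were also set against the genes that hold them. Of the 29 outside longer genes 19 fell, of the 9 opposite to a gene 3 fell, and of the 49 within a gene on the same strand 15 fell and 2 rose. The 29 include Rmrp, although GENCODE M21 also has a long noncoding gene named Rmrp on that strand, with an exon overlapping it. How reads were assigned between these entries is not given in the sources used here. That 15 became 8 without mimic replicate 2 or 6 and 5 without mimic replicate 3 or 4 or control replicate 2 or 3. For 45 of the 49 within a gene the host gene was tested too, 34 hosts in all. Of the 13 of the 45 that fell, the host rose for 5, fell for 1 and was not called for 7. For comparison, 9 of all 34 hosts rose and 7 fell. The median of the RNA's log2 fold change minus that of its host was -1.04 for the 13 RNAs that fell and -0.02 for the 30 not called. The 13 were picked by their own fall, and host log2 fold changes spanned only -0.718 to 0.356. A negative median was therefore largely set by that choice, and nothing rests on it. Snx5 rose by 0.11 (limma adjusted p = 0.0366) while Snord17 fell. Kpna4, a nuclear import receptor gene, rose by 0.24 (0.011) while Gm22009 within it fell. Atg16l1, an autophagy gene, measured 0.05 (0.394) beside Scarna6 and Gm25395. Tpt1 fell by 0.40 (0.0367) while Snora31 within it rose. Taf1d, which encodes a subunit of an RNA polymerase I factor, rose by 0.24 (0.0145), and of its 4 snoRNAs Gm23455 fell (-0.24) and Gm24357, Gm24455 and Gm25791 measured 0.07, 0.22 and -0.28 without passing.

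For each of the 45 pairs the difference between RNA and host was also taken in every library and compared between groups by an exact two-sided permutation test, adjusted over the 45. Of these, 4 pairs passed at 0.05, all with an adjusted p of 0.0487. Gm25835 fell relative to Eif4a1 (by 0.55), Snord89 relative to Gm15832 (by 0.39) and Gm23455 relative to Taf1d (by 0.49), while Snora31 rose relative to Tpt1 (by 1.00). For Snord17 and Snx5 the difference was larger, a log2 CPM of -4.11 ± 0.58 in mimic libraries and -2.90 ± 0.54 in controls (SD, n = 6 and 5), and it missed the threshold (exact permutation p = 0.0108, adjusted p = 0.0584). With 11 libraries the smallest unadjusted p is 0.00216. Of the 49 RNAs, 13 overlap an exon of their host, so that reads of the host may be among theirs, and the strand setting of the counting is not given in the sources used here.

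**Figure D5:**
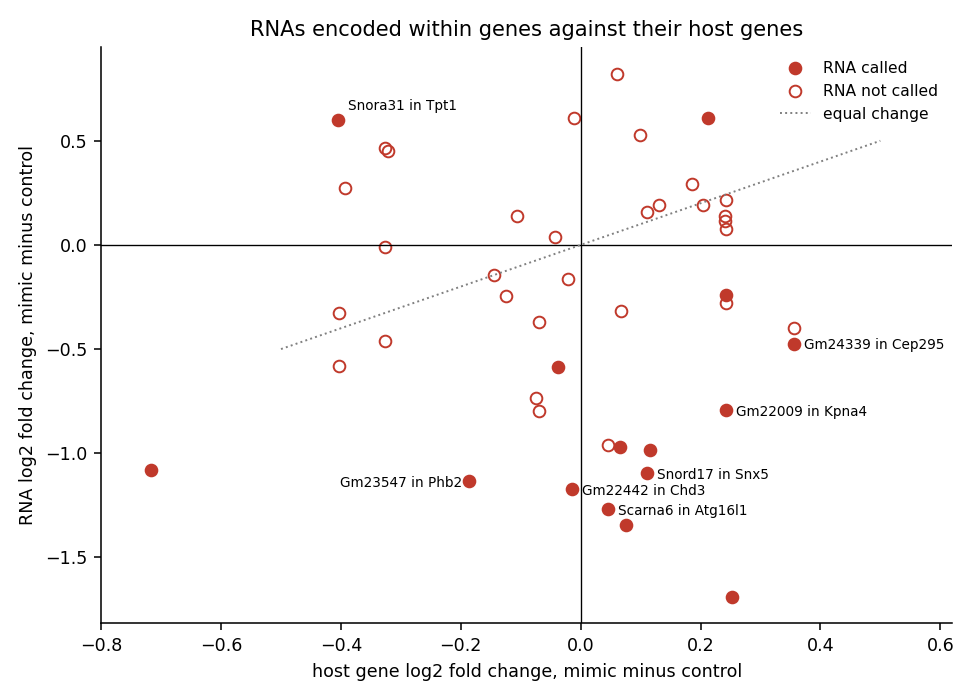
Log2 fold change of each of 45 RNAs (vertical axis) against that of the gene it lies in (horizontal axis), mimic minus control; filled points are RNAs that passed the test, and the dotted line marks equal change. The RNAs that fell sit at -0.24 to -1.69, and 5 of their 13 hosts rose, against 9 of all 34 hosts.

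The proteins that build these particles were compared as lists chosen by role. Of 15 Sm and LSm proteins tested, which form rings on snRNAs, 7 fell and 1 rose (median log2 fold change -0.24); Snrpd2 fell by 0.38, Snrpf by 0.41 and Lsm2 by 0.34 (limma adjusted p at most 0.0204). It was 3 without mimic replicate 6 or control replicate 2 or 3, and 4 without mimic replicate 3 or 4 or control replicate 1 or 6. Of 25 proteins particular to the U1, U2, U4, U5 or U6 particles none fell and 6 rose (median 0.06), led by Sf3a3 (0.28), Usb1 (0.29), which trims the end of U6 RNA, and Prpf31 (0.18). Of 28 proteins that transcribe snRNA genes or assemble the particles 4 fell and 8 rose, though 2 rose without mimic replicate 6, 3 without mimic replicate 3 or control replicate 2 or 4, 4 without mimic replicate 4 and 5 without control replicate 1 or 3, and 2 fell without mimic replicate 2, 4 or 6 or control replicate 3, 4 or 6; the Integrator genes Ints1 and Ints3 fell by 0.22 and 0.16, and Ints4 rose by 0.22. Of 19 proteins of box C/D and H/ACA particles 4 fell and 2 rose. Nop10, a small H/ACA protein, fell by 0.88 (adjusted p = 0.00571) and Dkc1, the pseudouridine synthase, rose by 0.24 (0.0186). For comparison, 14.6% of all genes tested fell and 15.4% rose.

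Partners of the RNAs that fell most were compared as lists too, beside 14.6% of all genes tested lower and 15.4% higher. Of 7 genes of the 7SK particle and P-TEFb, Hexim1 fell by 0.19 (limma adjusted p = 0.0131) and Mepce, which caps 7SK, by 0.22 (0.0142), while Ccnt2, a cyclin of P-TEFb, rose by 0.23 (0.0259). Of 10 RNase P and RNase MRP proteins 3 fell and none rose (median -0.13): Rpp21 by 0.34, Pop7 by 0.28 and Pop5 by 0.25. Without mimic replicate 4 or 6 or any control, 1 of these proteins fell. Of 8 signal recognition particle proteins Srp14 fell by 0.26 and Srp72 rose by 0.16. Of 25 subunits and factors of RNA polymerase III 3 fell and 6 rose (median 0.03), with Gtf3c6 up by 0.39, Polr3f by 0.31 and Polr3b by 0.27. Of 5 Y RNA, vault and La proteins Ssb, the La protein that binds the ends of new polymerase III transcripts, rose by 0.35 and Tep1 by 0.16. Of 17 exosome and trimming factors 3 fell and 2 rose. Of 12 noncoding snoRNA host genes 1 rose, Zfas1, by 0.89 (adjusted p = 7.16e-09), with all 6 mimic libraries above every control. The counts of 3 or fewer in this paragraph moved by at most 2 with 1 library left out, and no list as a whole was tested. Such a move can remove a call: of the 11 fits without 1 library, Ccnt2 and Srp72 each missed the threshold in 4. Pop5 missed it in 7, Pop7 in 9 and Rpp21 in 1.

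Other short or structural transcripts were read beside these RNAs. The 2 mitochondrial ribosomal RNAs took 0.0389% to 0.0655% of reads in mimic libraries, with mimic replicate 1 highest, against 0.0656% to 0.0890% in controls. The 60 histone genes took 0.0208% to 0.0388% in mimic libraries, again with replicate 1 highest, against 0.0389% to 0.0426% in controls. Nuclear-encoded ribosomal RNA genes took at most 0.000440% in mimic libraries and 0.000394% in controls. Of 9 marker lists for other cell types, the eosinophil list summed to 27.4 to 29.2 CPM in mimic libraries and 33.8 to 36.0 CPM in controls, without overlap, and the fibroblast list to 19.3 to 38.6 CPM in mimic libraries and 27.4 to 38.7 CPM in controls. The neutrophil list summed to 8.02 to 15.1 CPM in mimic libraries and 12.8 to 16.6 CPM in controls, and the dendritic cell list to 2.38 to 3.44 CPM in mimic libraries and 2.96 to 4.34 CPM in controls. The only neutrophil marker and the only eosinophil marker tested were lower, as was 1 of the 2 dendritic cell markers tested. Of the 8 macrophage markers, 2 were lower and 2 higher. The T cell list stayed at or below 0.406 CPM in mimic libraries and 0.394 CPM in controls. The mast cell list, with no marker tested, went the other way, at 0.699 to 1.24 CPM in mimic libraries and 0.369 to 0.898 CPM in controls. The ranges of the B cell, mesothelial and erythroid lists overlapped between groups. The part of these in the falls was not tested.

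The calls depend on which libraries are included. As alternatives added after the data were seen, several libraries were left out together. Without mimic replicates 3, 4 and 6, 6 of the 88 RNAs fell, against 6.83% of all genes. Without control replicates 2 and 3, 5 of the 88 fell, against 6.25% of all genes. In both fits the share of the 88 that fell was thus no larger than that of all genes. The median log2 fold change of the 88 was -0.35 and -0.41 in these fits. Leaving out mimic replicate 1 together with control replicates 2 and 3 gave 36 lower (13.6%). The authors' deposited table calls 37 of the 88 lower and 0 higher at its adjusted p below 0.05, and 33 were lower in both.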

How the data were processed

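The submitters' processing notes name STAR, featureCounts (of Subread) and edgeR. Their versions, the genome build, the strand setting and the handling of reads with several matches are not given in the sources used here. Expression values that the authors deposited are log2 CPM for 32265 rows (31936 gene IDs; the first row of each was kept). The values showed how they were made: 0.5 had been added to whole reads, the sum divided by a scaled total (0.97 to 1.03 times the reads recovered) and the log taken; 100% of the reads recovered were whole within 0.01. The authors' deposited log2 fold changes and adjusted p-values (their test is not given) were used for 1 comparison of calls.

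Linear models with a group term were fitted to all 12969 genes that reached a log2 CPM of -1 in 5 or more libraries, with limma 3.58.1 in R 4.3.3 (trend and robust moderation, statmod 1.5.0), Benjamini-Hochberg adjustment and a threshold of 0.05. The fit was tested on simulated data. A negative binomial count test was set aside because the table holds log2 values. Positions, lengths and sequences come from GENCODE M21 (GRCm38), joined by Ensembl ID, which held 87 of the 88 RNAs; Gm27676 was not found, and the gene named Snhg7 in the table is called Snora43 there. Likeness was scored by local alignment (Biopython 1.88). Tables and figures used Python 3.11.15, pandas 2.3.3, numpy 2.4.6 and matplotlib 3.10.9.

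The members, gene lists and alternatives were chosen with earlier results of these data known. Named are the 3 most abundant RNAs of each class, called RNAs (the 25 with the smallest p), the largest rises and falls of each class, named 7SK, 7SL, telomerase, RNase P and RNase MRP RNAs, RNAs nearest the filter, up to 3 genes per list, and host genes; further 7SK copies and short snoRNAs were chosen after their values were seen. Alternatives covered scaling, filter, pseudocount, a weighted voom fit, the threshold, a replicate block and each library left out. Replicates differed by more than sampling noise, and none was merged as a duplicate. The chi-square per degree of freedom was 2.76 to 5.34 between controls and 2.6 to 44.2 between mimic libraries. It was 2.6 to 5.08 among mimic replicates 3, 4 and 6 and 4.6 between mimic replicates 2 and 5. Between these 2 sets it was 8.28 to 23.2, and mimic replicate 1 stood at 10.6 to 44.2 from the other mimic libraries.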

Additional observations from a re-analysis of the deposited data

Results flagged for a closer look

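In groups of 5 or 6 libraries, a library was singled out when its gap to the nearest other value was large for the range of its group, by Dixon's criterion, for the 43 named RNAs (86 groups). Chance does so for about 1 group in 20, and 10 values were singled out. Of these, 8 were of mimic replicate 1. It was far above the other mimic libraries, in log2 CPM, for Rmrp (9.42), Snord17 (6.60), Gm23153 (3.75), Gm22058 (1.69), Gm23780 (0.53), Gm23624 (0.37) and Rn7s2 (-0.26), and far below them for Gm25117 (-1.60). For Gm25117, control replicate 6 was far above the other controls (-0.60). For the gene named Snhg7, mimic replicate 2 was far above the other mimic libraries (2.65). The reason for the position of mimic replicate 1 was not tested.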

How the results depend on the processing

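The 37 RNAs lower became 22 without a filter on low values, where all genes enter the adjustment, and 12 at an adjusted p below 0.01. They were 21 to 46 when 1 library was left out, with the lowest count without control replicate 2 or 3 and the highest without mimic replicate 1. Omissions chosen after seeing the data gave 6 (mimic replicates 3, 4 and 6) and 5 (control replicates 2 and 3), shares no larger than those of all genes. The cause was not tested. Other settings gave 35 (a filter on mean level, which kept 78) to 48 (weighted voom fit). The 2 RNAs higher became 0 without a filter, at the stricter threshold and under each of the 3 added omissions, 4 in the voom fit, and 0 to 4 with 1 library left out. With the replicate number as a replicate block, 31 were lower and 0 higher; same-numbered libraries did not deviate together (correlations -0.0606 to 0.0623), so the numbers were not taken to pair them. The median log2 fold change stayed between -0.55 and -0.41 with 1 library left out, and no named RNA or gene that passed the test reversed its sign in these settings. Of those that did not pass, Gm25047 (0.07) measured -0.027 (without mimic replicate 4) to 0.167 with 1 library left out, and without mimic replicates 3, 4 and 6 Gm25047, Gm22270 (0.14) and Trove2 (0.07) became -0.21, -0.0016 and -0.11. Low counts limit the rarer RNAs, several of which rest on fewer than 20 reads per library.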
